A study of Mus musculus with 4 samples.

Results

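The 10 genes described here are Cish, Socs1 to Socs7, Pim1 and Pim2, found by symbol among the 31053 genes of the deposited matrices. All 10 were found, and none was chosen by its level. Single cells from mouse bone marrow were sequenced with a droplet method that counts unique molecular identifiers (UMIs), each marking 1 captured RNA molecule near its 3′ end. KLS cells (lineage-negative, c-Kit-positive, Sca-1-positive) are blood stem and early progenitor cells, and MSC denotes stromal cells sorted for Sca-1 and CD140a and against CD45 and CD71, with Ter119 absent or low. Each population was taken from control mice (Vav1-Cre/+ STAT5ab+/+) and from STAT5 knockout mice, called KO here (Vav1-Cre/+ STAT5ab fl/fl). This gave 4 libraries, 1 per group. Every group carried Vav1-Cre, a Cre transgene active in blood cells, so the stromal cells themselves are not its target. The KLS cells came from 4 mice aged 8 to 12 weeks (whether per genotype or in all is not stated in the labels) and the stromal cells from mice aged 6 to 8 weeks. Single mice cannot be told apart in the files. With 1 library per group no test between conditions is possible, so no p-value is given, and every interval below is a 95% interval that covers counting error only.

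CISH and the SOCS proteins share an SH2 domain, which binds phosphotyrosine, and a SOCS box, which recruits an elongin and cullin ubiquitin ligase. They are negative feedback regulators: cytokine receptors activate JAK kinases, JAKs phosphorylate STAT factors, STATs switch on genes such as Cish and Socs2, and the encoded proteins then bind receptors or JAKs and dampen the signal. Cish and Socs2 are textbook STAT5 targets, Socs3 is best known as a STAT3 target, and Socs4 to Socs7 are less tied to cytokine induction. Pim1 and Pim2 encode short-lived serine/threonine kinases that promote survival and growth and are induced by several STATs in blood cells.

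After filtering, 3085 control KLS cells and 6726 KO KLS cells remained, with medians of 15136 and 10085 UMIs per cell, and 577 control and 374 KO cells remained in the MSC libraries. Libraries shared cell barcodes: 393 barcodes of the control KLS library and 295 of the KO KLS library also occurred in another library, and a barcode was left out where it held more UMIs elsewhere. Of the UMIs of the deleted genes, Stat5a was at 68.5 counts per 1000000 UMIs (CPM) in control and 6.74 CPM in KO KLS cells, and Stat5b at 60.8 and 4.49 CPM. Which exons are floxed is not given in the sources used here. In the stromal gates, where Cre is not directed, Stat5a was at 44.8 CPM in control and 60.1 CPM in KO, and Stat5b at 55.7 CPM (87 UMIs) in control with 54 UMIs in KO. KLS cells were placed in gates by their own transcripts: Dntt (lymphoid priming), Pf4 (megakaryocyte priming), Klf1 with Gata1 (erythroid), 4 granule genes (myeloid), Hlf, Mecom and Procr all detected without any of these (the stem triad gate), more than 1 of the lineage gates (mixed), and the rest (ungated). Markers not used for gating followed most of the gates in control: 7 lymphoid genes summed to 1211 CPM in the Dntt gate against 254 CPM in the stem triad gate, and 7 erythroid genes to 6107 CPM in the Klf1/Gata1 gate against 937 CPM. A set of 7 stem cell genes separated the gates little, at 718 CPM in the stem triad gate and 665 CPM in the Dntt gate.

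STAT5 dimers are known to bind the palindrome TTCNNNGAA, and the Cish sequence is shown because its window holds more copies than that of any other member with a window. In the RefSeq promoter windows (GRCm38.p6, 250 bases before to 50 after each start), 8.30% of 32851 windows hold this motif at least once and 0.457% hold it at least 2 times. The motif is its own reverse complement, so both strands were covered. The Cish window holds 2, in the following stretch of the plus strand at chr9:107296654-107296683, with both matches in capitals.
Cish: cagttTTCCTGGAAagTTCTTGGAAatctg
TTCCTGGAA begins at base 1 of the RefSeq transcript, counting from its annotated start, and TTCTTGGAA at base 12. The gene itself (ENSMUSG00000032578) spans chr9:107296026-107302784 on the plus strand in the GENCODE annotation of GRCm38. The Socs3 window holds 1 match, TTCTTAGAA, 154 bases before the start. The windows of Socs1, Socs4, Pim1 (2 windows) and Pim2 hold none. Socs2, Socs5, Socs6 and Socs7 have no window in the table used. A match is a description of the letters and does not show that a factor binds there.

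In KLS cells as a whole, Cish was the member that differed most between genotypes, and it was lower in KO. Cish had 705 UMIs (13.8 CPM, 12.8 to 14.8) in control and 459 UMIs (6.01 CPM, 5.47 to 6.58) in KO, a log2 ratio of -1.20 (-1.37 to -1.03). The other members tied to acute cytokine signals split in direction. Socs1, an inhibitor that binds JAKs directly, was at 10.6 CPM in control and 7.29 CPM in KO (log2 ratio -0.54, -0.71 to -0.37). Socs2, a regulator of growth hormone and other STAT5-linked receptors, was at 8.995 and 6.81 CPM (-0.40, -0.59 to -0.22). Pim2 was at 15.6 and 10.5 CPM (-0.58, -0.72 to -0.43). These 3 genes lay on the same side as Cish, with smaller differences.

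Socs3, which binds gp130-type receptors and JAKs, went the other way, with 9.07 CPM in control and 14.2 CPM in KO (0.64, 0.49 to 0.80). Pim1 was also higher in KO, at 248 CPM in control and 317 CPM in KO, with a log2 ratio of 0.35 (0.32 to 0.39). The remaining SOCS genes were nearly level. Their log2 ratios ran from -0.17 for Socs5 (17.4 and 15.5 CPM) through -0.12 for Socs6 (27.8 and 25.5 CPM) and 0.10 for Socs7 (23.0 and 24.7 CPM) to 0.11 for Socs4 (38.7 and 41.6 CPM).

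**Figure D1:**
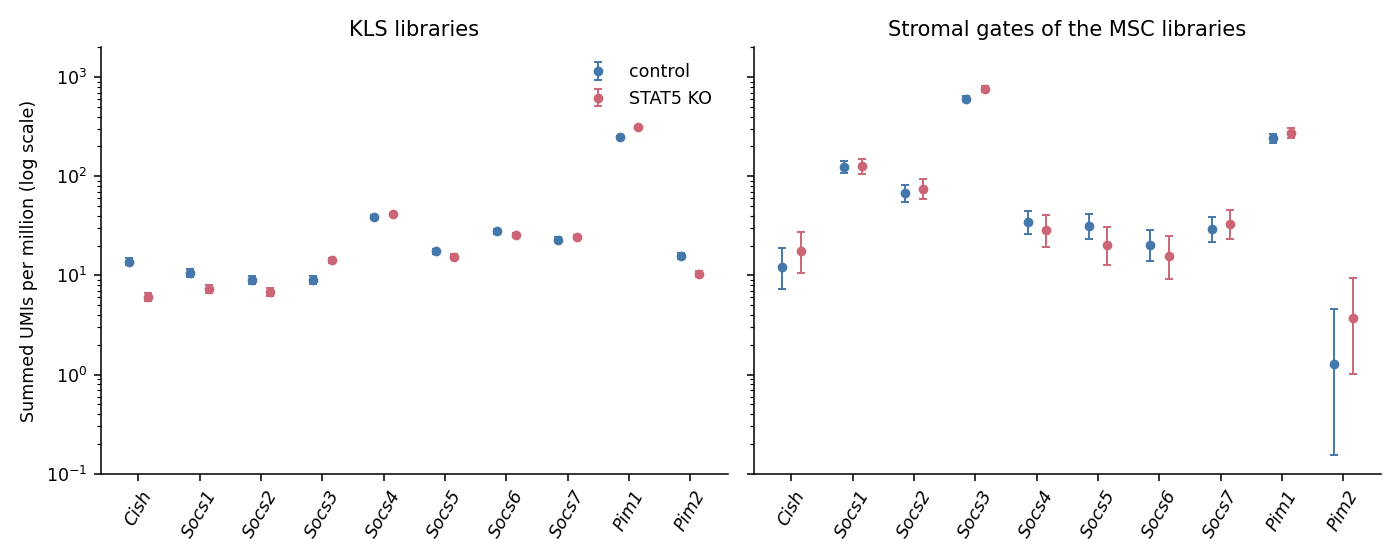
Summed CPM (log scale) of the 10 genes in the KLS libraries (left) and in the stromal gates of the MSC libraries (right), control in blue and STAT5 KO in red, with 95% counting intervals and 1 library per point. In KLS cells Cish sits at 13.8 in control and 6.01 in KO, while Socs3 and Pim1 sit higher in KO, and in stromal cells Socs3 stands at 609 and 758.

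A gene was compared against a threshold of 1.5-fold where the libraries together held 100 or more of its UMIs. By this rule 1 of the 10 members (Cish) was lower in KO, where 5.15% of all 12074 genes were, and 1 (Socs3) was higher, where 2.05% of all genes were. Both counts are too small to read against these backgrounds. Just short of the threshold were Pim2, at 1.49-fold lower, and Socs1, at 1.45-fold lower. With every cell thinned to 5000 UMIs, or with the KO cells that hold a Stat5 UMI left out, 4 members were past the fold on the lower side. The share of all genes was not computed under either setting, so these counts cannot be read against a background. The call of Socs3 was lost under 3 alternatives, each with 0 members past the fold on the higher side: its log2 ratio was 0.26 with barcodes that held more UMIs in another library kept, 0.51 with thinned cells and 0.57 with KO cells weighted to the gate shares of control.

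The share of cells with a UMI gave the same direction for Cish, Socs2 and Socs3, but the order of members was not the same. Thinned as described next, Pim2 was detected in 8.31% of control and 5.03% of KO cells, a smaller relative fall than that of Socs2. In cells thinned to 5000 UMIs, Cish was detected in 7.39% of control and 3.14% of KO cells (17.8% and 5.75% unthinned). Socs2 was detected in 4.99% and 2.71% (10.1% and 4.36% unthinned), and Socs3 in 4.73% and 6.68% (11.3% and 11.7% unthinned). Cxcl12, a stromal gene that blood progenitors should lack, had a UMI in 0.0329% and 0.0344% of thinned cells, a low share in libraries with few cells that make it, so the background of the members from free RNA was not measured.

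Cish and Socs2 were graded across the KLS gates of control, highest in the stem triad and Pf4 gates and lowest in the granule gate. In control, Cish was at 31.0 CPM in the stem triad gate, 23.6 in the Pf4 gate, 15.9 in ungated cells, 9.20 in the Dntt gate, 7.35 in the Klf1/Gata1 gate (9 UMIs) and 3.49 in the granule gate. The stem triad and Pf4 gates did not differ beyond counting error (log2 ratio -0.40, -0.84 to 0.04), and the granule gate was 8.89-fold below the stem triad gate. Socs2 followed the same order down to the Dntt gate in control, at 21.1, 19.8, 12.7 and 4.46 CPM, with 0.930 CPM (4 UMIs) in the granule gate. In KO, Cish was also highest in the stem triad gate, at 27.5 CPM, with 2.14 CPM (5 UMIs) in the Klf1/Gata1 gate and 3.40 CPM in the Dntt gate. Socs2 spanned a wider range in KO, from 56.4 CPM in the stem triad gate to 1.09 CPM in the granule gate. Pim1 varied less among gates: in control it lay between 205 and 273 CPM in all gates except the Klf1/Gata1 gate, where it was at 92.3 CPM.

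Within gates, Cish was lower in KO in 6 of 7 gates, and the interval lay below 0 in 5 of them. The log2 ratio was -0.18 (-0.59 to 0.23) in the stem triad gate, -0.83 in ungated cells, -1.44 in the Dntt gate and -1.45 in the Pf4 gate. In the granule gate, where Cish is scarce, it was 0.15 (-0.70 to 1.08). Socs1 was likewise lower in 6 of 7 gates, 5 of them with an interval below 0. The stem triad gate therefore held the smallest difference in Cish among the gates with lower levels. Its KO cells were not alike: those without a Stat5a or Stat5b UMI were at 16.8 CPM (11.7 to 23.4), below the control level given above. Those with such a UMI were at 61.6 CPM (44.0 to 83.8), above it.

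Socs2 changed direction among gates. In the stem triad gate it was at 21.1 CPM (109 UMIs) in control and 56.4 CPM (154 UMIs) in KO, a log2 ratio of 1.42 (1.05 to 1.78). In the Dntt gate it was at 4.46 CPM (80 UMIs) in control and 1.76 CPM (43 UMIs) in KO, a log2 ratio of -1.34 (-1.91 to -0.79). These intervals do not overlap, and each gate compares 1 library with 1 library. When KO cells were weighted to the gate shares of control, the log2 ratio of Socs2 over all KLS cells became 0.34 in place of -0.40. The stem triad gate held 11.5% of control and 3.94% of KO cells, and because it needs 3 transcripts in a cell, its share depends on depth.

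Socs3 and Pim1 were higher in KO across gates. Socs3 was higher in all 7 gates, with the interval above 0 in 3: the granule gate (8.37 CPM in control and 21.2 CPM in KO), ungated cells (10.3 and 16.3 CPM) and the mixed gate (5.83 and 14.5 CPM). Pim1 was higher in 6 of 7 gates, with the interval above 0 in 5, and its log2 ratio reached 0.58 (0.48 to 0.68) in the granule gate, where it was at 225 and 336 CPM. Pim2 was lower in 6 of 7 gates, 3 of them with an interval below 0, but was at 22.9 CPM in control and 29.3 CPM in KO in the stem triad gate (0.36, -0.07 to 0.78).

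**Figure D2:**
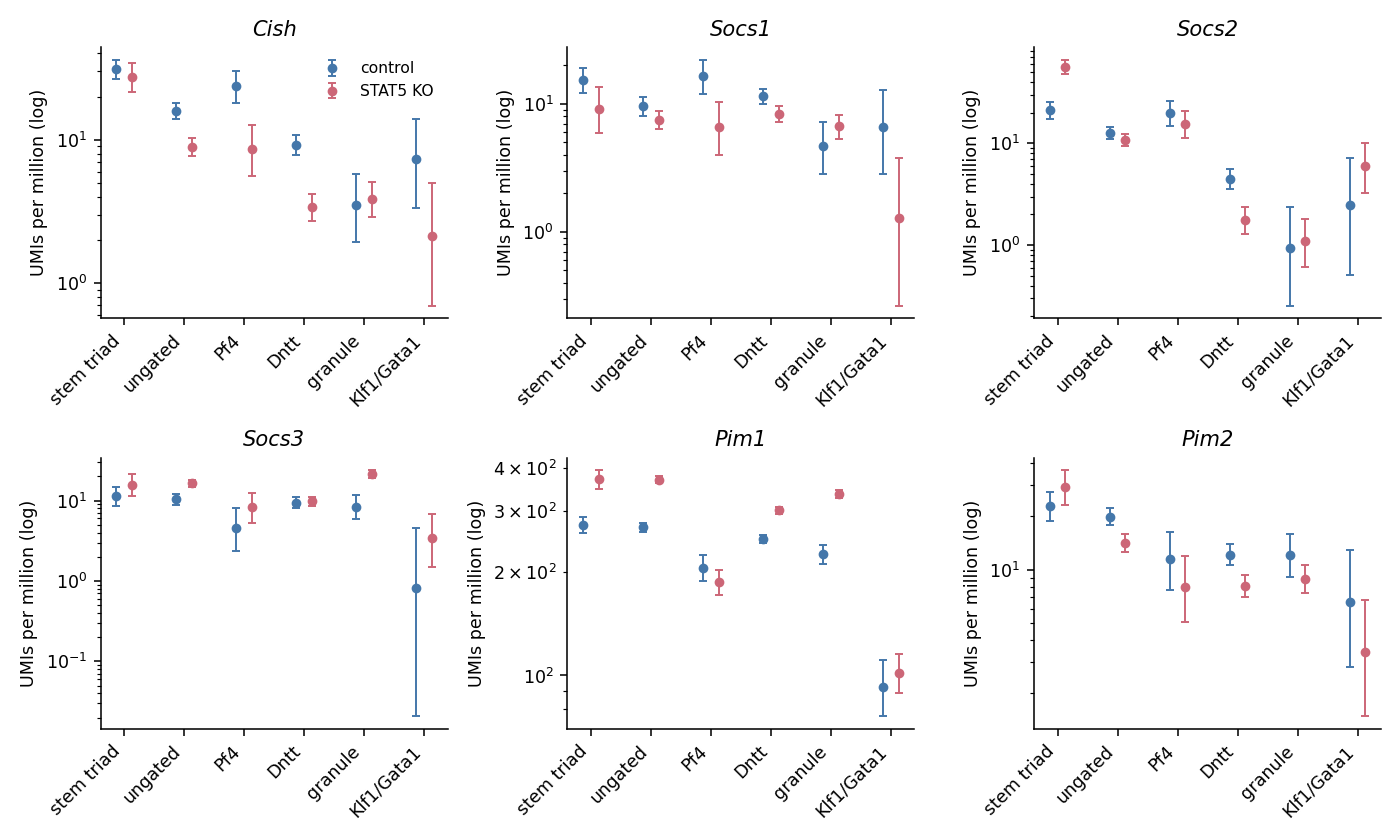
Summed CPM (log scale) of Cish, Socs1, Socs2, Socs3, Pim1 and Pim2 in 6 gates of the KLS libraries, control in blue and STAT5 KO in red, with 95% counting intervals and 1 library per point. Cish is highest in the stem triad gate of both libraries (31.0 and 27.5), and Socs2 lies higher in KO in the stem triad gate (56.4 against 21.1) and lower in the Dntt gate (1.76 against 4.46).

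By gate, few members passed the 1.5-fold threshold. In the stem triad gate Socs1 was lower and Socs2 higher, where 2.21% and 1.78% of all genes were. In ungated cells Cish was lower and Socs3 higher, where 2.22% and 1.84% were. The Dntt gate held the largest number, with Cish, Socs2 and Pim2 lower (3.23% of all genes) and 0 higher (1.51%), and Pim2 at -0.59 was just past the threshold of 0.585 on the log2 scale. In the granule gate 0 of 8 measured members were lower (1.93%) and Socs3 was higher (2.72%). The mixed gate had Pim2 lower (4.29%) and Socs3 higher (2.58%) among 7 measured members. Neither the Pf4 gate, with 4 measured members, nor the Klf1/Gata1 gate, with 2, had a member past the fold, where 2.98% and 1.26% of all genes were lower and 3.79% and 3.56% higher. Cish was too scarce to count in either.

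A minority of KO KLS cells still held Stat5a or Stat5b UMIs, and in these cells Cish and Socs2 were far higher than in the other KO cells. Such UMIs were found in 454 of 6726 KO cells (6.75%), 229 of them with at least 2, against 79.3% of control cells. They were spread unevenly: 26.4% of the stem triad gate, 19.5% of the Pf4 gate, 9.22% of ungated cells, 4.55% of the granule gate and 1.45% of the Dntt gate held one. Over all gates, cells with and without a Stat5 UMI had similar depth in KO, with medians of 10195 and 10076 UMIs. Within gates the depths differed. Cells with one were shallower in the stem triad gate (7885 against 9934) and deeper in the other gates, as in ungated cells (9349 against 7543) and the Dntt gate (14694 against 10991). Of the 454 barcodes, 2 also occurred in another library. A cell without such a UMI may still hold the transcript, since 639 of 3085 control cells had none.

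Cish was at 26.1 CPM (149 UMIs) in KO cells with a Stat5 UMI and 4.39 CPM (310 UMIs) in those without. Within strata of gate and depth, the combined log2 ratio (a Mantel-Haenszel rate ratio) was 2.18 (1.87 to 2.49), rank 38 of 11409 genes. For Socs2 the levels were 58.0 CPM (331 UMIs) and 2.67 CPM (189 UMIs), with a log2 ratio of 3.27 (3.02 to 3.53), rank 5. Of the 520 Socs2 UMIs of the KO library, 331 thus lay in 6.75% of its cells. Socs1 (10.7 and 7.02 CPM, 0.86, 0.45 to 1.28) and Pim2 (20.0 and 9.69 CPM, 0.79, 0.49 to 1.09) were also higher in cells with a Stat5 UMI.

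The other members showed little or no difference across this split. Log2 ratios lay between -0.09 (Socs7) and 0.18 (Socs5) for Socs3 to Socs7, each interval including 0. Pim1 was at 324 and 317 CPM, with a log2 ratio of 0.11 (0.04 to 0.18). Thus 4 of 10 members were past 1.5-fold on the higher side and 0 on the lower, where 6.28% and 4.04% of all genes were. No test stands behind this count, which comes from 1 library.

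**Figure D3:**
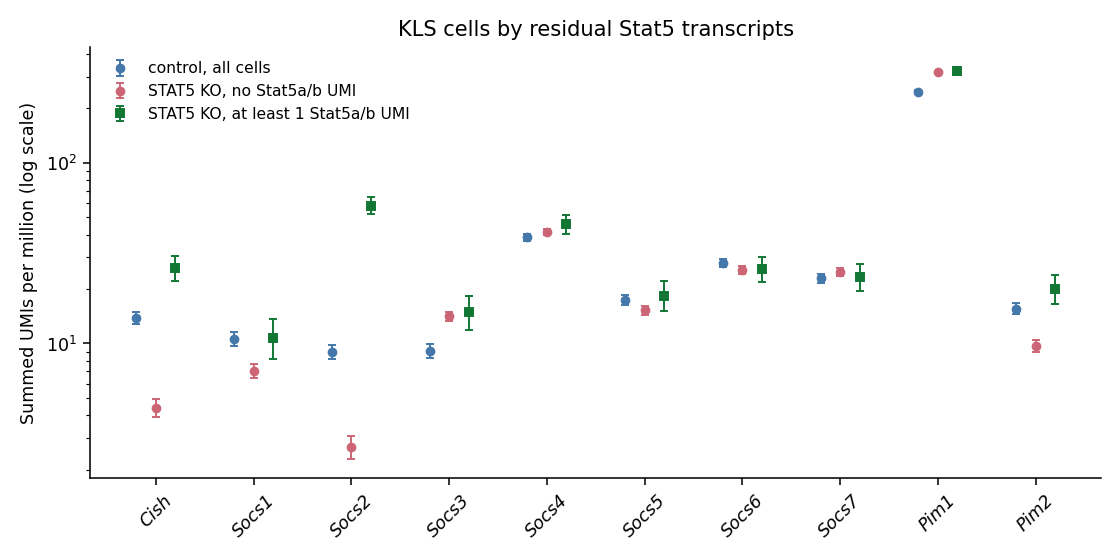
Summed CPM (log scale) of the 10 genes in all control KLS cells (blue circles), KO KLS cells without a Stat5a or Stat5b UMI (red circles) and KO KLS cells with at least 1 (green squares), with 95% counting intervals. Socs2 runs from 2.67 without to 58.0 with a Stat5 UMI, with control at 8.995, and Cish from 4.39 to 26.1, with control at 13.8, while Socs3 to Socs7 and Pim1 show near-level KO classes.

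In thinned cells the shares differed as the levels did, with the Stat5 classes set at full depth before thinning. Among KO cells thinned to 5000 UMIs, Cish was detected in 14.4% of those with a Stat5 UMI and 2.26% of those without (23.1% and 4.496% unthinned). Socs2 was detected in 22.0% and 1.20% (38.3% and 1.90% unthinned). In the control library Cish and Socs2 were not higher in cells with a Stat5 UMI: the stratified log2 ratio was -0.20 for Cish and -0.32 for Socs2, with both intervals including 0, and 0.47 (0.14 to 0.80) for Pim2. No member was past 1.5-fold there, where 1.35% of all genes were higher and 0.704% lower. In its stem triad gate both were lower in cells with a Stat5 UMI, Cish at 26.7 against 57.4 CPM (-1.11, -1.63 to -0.56) and Socs2 at 15.8 against 53.3 CPM (-1.75, -2.34 to -1.15). Cish was also lower with one in ungated control cells, at 14.4 against 25.7 CPM (-0.83, -1.28 to -0.37). Those control cells without a Stat5 UMI were shallower, with medians of 8050 UMIs in the stem triad gate and 8160 in ungated cells, against 14831 and 13461 with one.

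The split held gate by gate for Socs2, which was higher in cells with a Stat5 UMI in all 7 KO gates, each with its interval above 0. Its level was 137 against 31.2 CPM in the stem triad gate, 61.2 against 4.55 CPM in ungated cells, 58.6 against 3.11 CPM in the Pf4 gate and 60.1 against 0.710 CPM in the Dntt gate. In the Klf1/Gata1 gate 14 Socs2 UMIs lay in the 16 cells with a Stat5 UMI and 0 in the 103 cells without. Cish was higher in all 7 gates, 5 with an interval above 0, at 61.6 against 16.8 CPM in the stem triad gate and 32.4 against 6.05 CPM in ungated cells. The Dntt gate was an exception for Cish, at 4.62 CPM (2 UMIs) and 3.38 CPM.

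Neither gene was graded by the number of Stat5 UMIs in a KO cell. With 0, 1, 2 and at least 3 such UMIs, Cish was at 4.39, 30.9, 21.2 and 24.3 CPM. Socs2 was at 2.67, 58.8, 47.8 and 66.6 CPM. In these sums, made without strata of gate or depth, the step thus lay between 0 and 1. In control cells the same series was 19.2, 14.7, 11.5 and 12.6 CPM for Cish and 13.8, 11.2, 7.56 and 7.08 CPM for Socs2, along with a median depth that went from 9623 UMIs at 0 to 20608 at 3 or more. Depth also differed along the KO series, with medians of 10076, 8333, 11290 and 14998 UMIs.

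**Figure D4:**
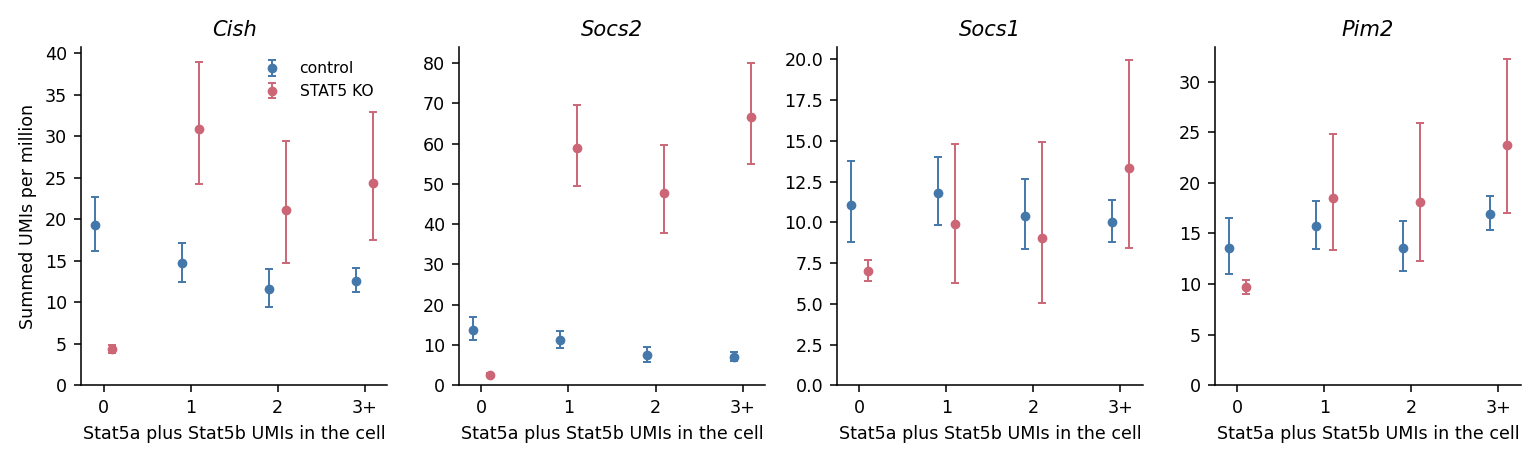
Summed CPM of Cish, Socs2, Socs1 and Pim2 in KLS cells grouped by their number of Stat5a plus Stat5b UMIs (0, 1, 2, 3 or more), control in blue and STAT5 KO in red, with 95% counting intervals. In KO, Cish steps from 4.39 at 0 to 30.9 at 1 and Socs2 from 2.67 to 58.8, with no further grading, and in control both are highest at 0.

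Set against control within gates, the KO classes fell on opposite sides. In KO cells without a Stat5 UMI, Cish had a stratified log2 ratio of -1.36 (-1.56 to -1.16) and Socs2 of -1.14 (-1.37 to -0.91), with 2 members past 1.5-fold lower and 1 (Socs3) higher, where 4.22% and 1.75% of all genes were. In KO cells with a Stat5 UMI, Cish was above control at 0.78 (0.52 to 1.04) and Socs2 at 2.46 (2.26 to 2.67). Together with Socs3 (0.82) these were 3 members past the fold on the higher side, where 5.57% of all genes were, and 0 were lower, where 6.03% were. Socs3 and Pim1 were above control in both classes, Socs3 at 0.61 without and 0.82 with a Stat5 UMI and Pim1 at 0.37 and 0.44. The stem triad gate differed for Socs2: KO cells without a Stat5 UMI were at 31.2 CPM (24.1 to 39.8) there, above the 21.1 CPM (17.4 to 25.5) of control.

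Other features of the KO cells with a Stat5 UMI are given here as sums over all gates, without strata of gate or depth. The gate shares themselves differed: the Dntt gate held 6.61% of these cells and 30.8% of all KO cells, and the Pf4 gate 10.4% and 3.58%. The 7 lymphoid genes summed to 167 CPM in KO cells with a Stat5 UMI, against 632 CPM in the other KO cells and 625 CPM in control. A set of 5 megakaryocyte genes summed to 269 CPM, against 67.2 and 73.6 CPM, and 7 erythroid genes to 1066 CPM, against 568 and 836 CPM. The 3 plasma cell markers summed to 2.10 CPM, against 177 and 12.0 CPM. The 7 stem cell genes summed to 520 CPM, against 532 and 629 CPM. The 3 stem triad genes summed to 344 CPM, against 226 and 349 CPM, and the 7 stromal markers to 9.63 CPM, against 1.68 and 1.58 CPM. In the ranking by stratified ratio, Plxdc2 (3.74), Podxl (3.43), Sox18 (3.42) and Lpl (3.31) stood before Socs2. The 6 endothelial markers summed to 76.2 CPM in KO cells with a Stat5 UMI, 75.3 CPM in the other KO cells and 94.3 CPM in control. Genes that differed between the libraries gave mixed values in the KO cells with a Stat5 UMI. Mid1, at 24.6 CPM in control, was at 0.350 CPM (2 UMIs) in them and 1.91 CPM in the other KO cells. Dhx40, at 10.9 CPM in control, was at 31.0 and 31.2 CPM. Ccl9, at 66.7 CPM in control, was at 87.4 and 154 CPM, so these cells lay between control and the other KO cells. Mid1 and Dhx40 were chosen after their values were seen, and Ccl9 was computed beside them. An alternative to the split also used strata by the number of Hlf, Mecom and Procr detected in a cell. Over all 7 alternatives to the split, the log2 ratio lay between 2.05 and 2.57 for Cish and between 2.47 and 4.44 for Socs2. The part of cell composition in these values beyond gate, depth and these 3 genes was not tested.

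Of the other pathway genes, few were past the fold. Between the KLS libraries, 0 of 8 SOCS box ligase partners (elongins, cullins and related subunits), 0 of 9 other JAK and STAT genes and 0 of 12 other inhibitors of cytokine signalling were past 1.5-fold in either direction. With 5.15% of all genes lower and 2.05% higher, a count of 0 in lists of this size stands near the background. Their medians were 0.15, -0.09 and 0.02, beside -0.15 for the 10 members and -0.01 for all genes. Of 11 measured other STAT5 target genes, 0 were lower and 2 higher in KO: Bcl6, a repressor that STAT5 is known to restrain (0.75), and Ccnd1, a cyclin (1.28). Of 16 measured cytokine receptors 1 was lower, Il7r, the interleukin 7 receptor (-0.90), and 0 higher.

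Across the split of KO cells, the same target list moved in part with Cish. Id1 (2.43), Ccnd2 (0.95) and Bcl2l1, which encodes the survival protein BCL-XL (0.68), were higher in cells with a Stat5 UMI, and Bcl6 was lower (-1.39). These were 3 higher and 1 lower of 11 measured targets, where 6.28% and 4.04% of all genes were. Of 16 measured receptors 1 was higher, Ghr, the growth hormone receptor (1.65), and 1 lower, Flt3, an early lymphoid and progenitor receptor (-1.22). The ligase partners, other JAK and STAT genes and other inhibitors had 0 past the fold in this split too.

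The stromal gates hold CD140a-sorted cells called by stromal or chondrocyte markers, and some blood marker UMIs did not exclude a cell. In these gates Socs3 was the member with a difference beyond counting error between genotypes. It had 952 UMIs (609 CPM) in control and 819 UMIs (758 CPM) in KO, a log2 ratio of 0.31 (0.18 to 0.45). Pim1 was at 243 and 272 CPM (0.17, -0.06 to 0.39), Socs1 at 124 and 127 CPM (0.03, -0.30 to 0.35) and Socs2 at 67.8 and 74.9 CPM (0.14, -0.29 to 0.57). Cish had 19 UMIs in each genotype (12.2 and 17.6 CPM), with a log2 ratio of 0.53 (-0.47 to 1.53). Pim2 had 2 and 4 UMIs, and the intervals of Socs4 to Socs7 included 0. Only 4 members had the 100 UMIs needed for the threshold, 0 were past it, and 8.55% of all 4201 genes were lower and 5.12% higher. With the chondrocyte gate left out (6 control and 29 KO cells), the ratio of Socs2 was -0.49.

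Within that population Socs3 and Pim1 were highest in cells rich in Cxcl12, the chemokine of the stem cell niche. In control, Socs3 was at 968 CPM in the CXCL12-rich gate and 469 CPM in other stromal cells, and in KO at 1012 and 666 CPM. Pim1 was at 527 against 132 CPM in control and 782 against 139 CPM in KO. The KO over control ratio of Socs3 was 0.51 (0.31 to 0.70) in other stromal cells, while the CXCL12-rich gate was at 0.06 (-0.20 to 0.32) and the difference between the gates was not tested. In the CXCL12-rich gate the Pim1 ratio was 0.57 (0.25 to 0.88). The 12 immediate early genes, which respond to stress and to tissue digestion, were likewise higher in CXCL12-rich cells. They summed to 31162 CPM in CXCL12-rich and 17499 CPM in other stromal cells of control, and to 38177 and 19215 CPM in KO. Between genotypes they did not move with Socs3: their sums differed more in the CXCL12-rich gate, where Socs3 was near level. Their part in the Socs3 and Pim1 levels was not tested.

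Between populations Socs1, Socs2 and Socs3 differed widely, in a comparison where 25.4% of all 11664 genes were at least 1.5-fold higher in stromal cells and 44.9% lower. Control stromal cells exceeded control KLS cells in Socs3 by 6.07 (5.91 to 6.23) on the log2 scale, in Socs1 by 3.55 and in Socs2 by 2.91, while Cish (-0.18, -0.92 to 0.47) and Pim1 (-0.03, -0.18 to 0.11) did not differ beyond counting error. Pim2 was lower (-3.61, -6.66 to -1.75). Socs4 to Socs7 differed less, at 38.7, 17.4, 27.8 and 23.0 CPM in control KLS cells and 34.6, 31.4, 20.5 and 29.4 CPM in control stromal cells. Stromal cells were released with collagenase and KLS cells were not, per the labels' protocols, and the immediate early genes summed to 1433 CPM in control KLS cells. Population and preparation cannot be told apart here.

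The erythroid cells within the MSC libraries had the highest Pim1 level of the gates with at least 50 cells. The erythroid gate of the MSC libraries, with 123 control and 93 KO cells (21.3% and 24.9% of each library) at medians of 648 and 633 UMIs, held 430 Pim1 UMIs (3438 CPM) in control and 357 (4986 CPM) in KO. Against the stromal gates of the same library this was 14.2-fold higher in control and 18.3-fold higher in KO. The log2 ratio of KO over control was 0.54 (0.33 to 0.74), in a gate where 20.8% of the 245 genes measured were past 1.5-fold higher and 2.86% lower. Socs1, Socs2 and Socs5 to Socs7 had 0 UMIs there in both libraries, and Socs3 had 2 and 0. In KLS cells the erythroid gate had the lowest Pim1 of all gates, at 92.3 CPM in control and 102 CPM in KO.

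**Figure D5:**
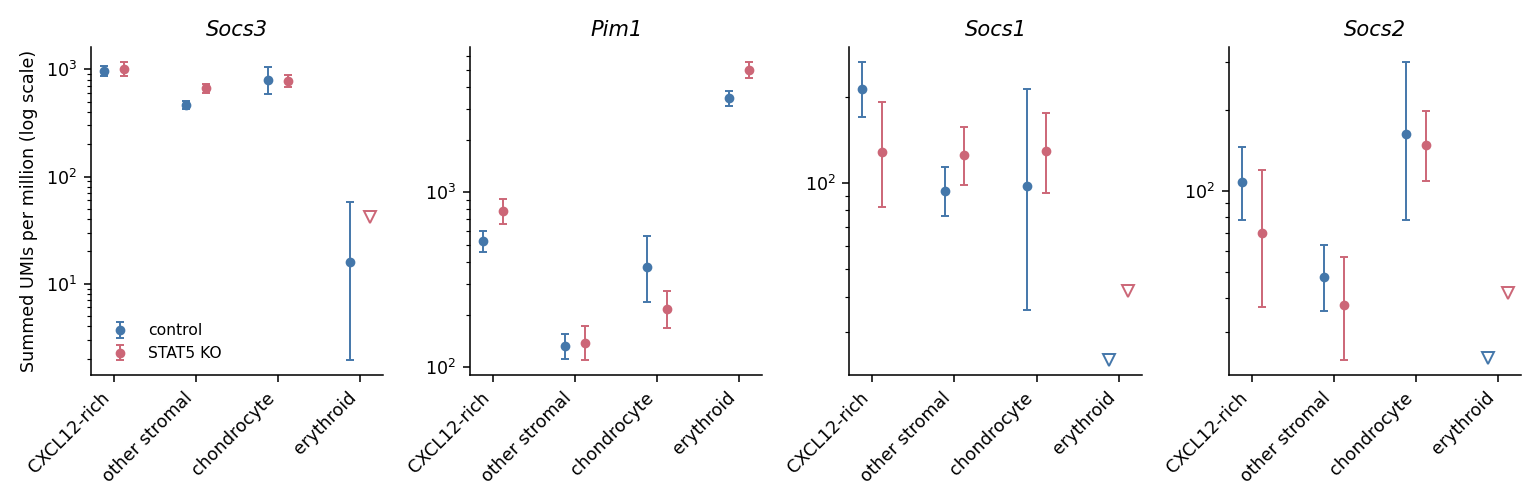
Summed CPM (log scale) of Socs3, Pim1, Socs1 and Socs2 in 4 gates of the MSC libraries, control in blue and STAT5 KO in red, with 95% counting intervals, and open triangles at the level of 3 UMIs where a gate held 0. Socs3 is at 968 and 1012 in the CXCL12-rich gate with 2 and 0 UMIs in the erythroid gate, where Pim1 reaches 3438 and 4986.

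Among 11281 genes compared over the 12 combinations of 6 KLS gates and 2 libraries, the patterns most like that of Cish were those of Ubl7 (Pearson r = 0.98), Ndn (0.98) and Bgn (0.96). For Socs2 they were Nbea (0.99), Art4 (0.98) and Enpp5 (0.97), and for Pim1 Qser1, Nfya (both 0.97) and Vldlr (0.96). Among members, Cish was most like Socs2 (0.83), and Pim1 most like Socs3 (0.93). The 12 points share 2 libraries and their depth, so these correlations describe the points and carry no test.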

How the data were processed

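The deposited matrices hold raw UMI counts per gene and cell barcode. Per the file headers they were written by software version 3.1.0, and the submitters' processing notes name Cell Ranger and the builds GRCm38 and mm10. Settings for alignment and cell calling are not given in the sources used here. Gene positions were taken from GENCODE and promoter windows from RefSeq (GRCm38.p6).

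Kept cells had 200 or more genes, with mitochondrial UMIs at or under 10%. The highest Scrublet scores (scanpy 1.11.5) were left out at 0.8% per 1000 barcodes, which marked 112, 451, 4 and 1 barcodes. Barcodes holding more UMIs in another library were left out (388 and 281 in the KLS libraries, 33 and 17 in the MSC libraries). Kept KLS libraries held 51139373 and 76389354 UMIs, kept MSC libraries 1752793 and 1199251.

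KLS gates used at least 2 Dntt or Pf4 UMIs, at least 1 UMI each of Klf1 and Gata1, and 2000 CPM of Mpo, Elane, Prtn3 and Ctsg together. CXCL12-rich and chondrocyte cells passed 10000 CPM of their markers. UMIs were summed per gate and scaled to 1000000. Ratios have exact conditional binomial intervals, levels exact Poisson intervals and shares Clopper-Pearson intervals. The Stat5 split was stratified by gate and 3 depth classes. PCR duplicates were collapsed by UMI. Detection shares were computed on KLS cells thinned to 5000 UMIs, leaving out 41 control and 905 KO cells. The script was tested on simulated data.

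All 10 members are named, list genes past 1.5-fold may be named, and the 3 most alike genes are named for Cish, Socs2 and Pim1 (log2 of CPM + 1, at least 200 UMIs). Members and lists were chosen with earlier results of these data known. The endothelial and stem triad lists, Mid1 and Dhx40 were added after values were seen. Alternatives covered edgeR 4.0.16 TMM factors, cell filters, shared barcodes, doublets, cell means, gate weights and thinning. For the Stat5 split, strata by the number of stem triad genes detected were an unplanned alternative. A listed gene is not reported here, and the receptor and megakaryocyte lists without it were added after values were seen.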

Additional observations from a re-analysis of the deposited data

Results flagged for a closer look

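Socs2 drew attention because the genotypes differed in opposite directions in 2 gates. The log2 ratio of KO over control was 1.42 in the stem triad gate and -1.34 in the Dntt gate of the KLS libraries. With 1 library per group, the difference between these ratios was not tested. Cells with a Stat5 UMI made up 26.4% of the stem triad gate and 1.45% of the Dntt gate in KO, and in KO cells without one Socs2 was at 31.2 CPM in the first gate and 0.710 CPM in the second.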

How the results depend on the processing

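Of 248 values recomputed under an alternative, 217 were rated as unchanged. A log2 ratio was rated so when it stayed inside the counting interval of the reported value. A count of members was rated so when it was equal to the reported count or within 1.5-fold of it. The sign changed in 12 of the log2 ratios. In 11 of these the interval of the reported value included 0, among them stromal Socs2 (0.14), at -0.28 with means of single-cell CPM and -0.49 without the chondrocyte gate, and stromal Socs1 (0.03), at -0.08 with such means. The other was Socs2 between the KLS libraries, 0.34 with KO cells weighted to control gate shares against -0.40. Cish between the KLS libraries (-1.20) was -0.996 with stricter limits on cells (500 genes, 5% mitochondrial), -0.78 with gate weights and -1.65 with KO cells holding a Stat5 UMI left out, an alternative added after seeing the data. The number of members past 1.5-fold lower (1) was 3 with means of single-cell CPM, 4 with thinned cells and 4 without KO cells holding a Stat5 UMI. The number higher (1) was 0 with barcodes larger elsewhere kept, with gate weights and with thinned cells. The share of all genes past the fold was not computed under these alternatives. Cish across the Stat5 split (2.18) was 2.57 without strata, and Socs2 ranged from 2.47 to 4.44. Stromal Socs3 stayed between 0.29 and 0.41. No paired analysis was possible because each group is 1 library. Low UMI totals limit Cish and Pim2 in stromal cells, and members other than Pim1 in the erythroid gate and other than Pim1 and Socs4 in the Klf1/Gata1 gate.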

Other observations

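Genes whose promoter window holds at least 2 copies of TTCNNNGAA were few. Between the KLS libraries, 5 of 49 such genes (10.2%) were at least 1.5-fold lower in KO, where 4.65% of the 9335 genes with a window were, and 2 were higher. Bcl6 and Cish were among the 7. Across the Stat5 split of KO cells, 7 of 46 (15.2%) were higher and 6 lower, where 5.90% and 3.68% of genes with a window were. The median log2 ratios of these genes were -0.04 between libraries and -0.03 across the split, near those of all genes with a window (0.00 and -0.01).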
